A study of Oryza sativa with 12 samples.

Results

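Shoots of a rice line that overexpresses the carotenoid cleavage enzyme Zaxinone Synthase (ZAS) were compared with wild-type shoots across all genes with enough reads. The comparison used the 6 shoot libraries among the 12 libraries of the series, 3 of the line OX6 and 3 of its wild type, and its members were set by organ and genotype. Of 57501 gene models in the deposited count table, 26251 passed the filter on low counts in these 6 libraries and were tested, and 31250 did not and were not analysed here. The wild type (WT) is the japonica cultivar Nipponbare. Both genotypes were grown hydroponically, both were 21 days old, and polyadenylated RNA was sequenced from shoots and, separately, from roots. The labels name no promoter for the overexpressed gene and 1 overexpressing line, so an effect of ZAS and an effect of something else that OX6 carries cannot be told apart. The labels also do not say whether the 3 libraries of a group came from separate plants, so p-values here cover only how far the libraries of a group differ, in part perhaps for technical reasons. Levels are library-size-scaled counts (CPM), normalised between libraries, and they compare 1 gene between libraries, not one gene with another, since they are not divided by gene length.

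Carotenoid cleavage dioxygenases cut carotenoids into apocarotenoids, a group that includes the precursors of the hormones strigolactone and abscisic acid. ZAS makes the apocarotenoid zaxinone, which is known in rice as a growth regulator that also affects strigolactone content. Strigolactone acts through the receptor D14, which targets the repressor D53 for breakdown and so restrains shoot branching.

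The 6 libraries held 32269044 to 62910092 counts, and the deepest was the WT library numbered 2. WT 1 stood apart from the other libraries on the first principal component, at -72.6 against -20.2 and -22.4 for WT 2 and WT 3, while the 3 OX6 libraries lay between 32.8 and 42.1. The labels give no batch that this could be set against, so named genes that lost their call when a library was left out, and list counts that moved by over 1.5 times, are given with that library, as WT 1 to 3 and OX6 1 to 3. The tissue label fitted the markers. Summed over 28 genes of leaf mesophyll and bundle sheath (Rubisco small subunits, light-harvesting proteins, carbonic anhydrase and photorespiratory enzymes), the level was 136983 to 154200 CPM in WT shoots and 114577 to 120413 CPM in OX6 shoots, against 875 to 936 CPM in WT roots. The 6 root marker genes summed to 49.3 to 61.2 CPM in WT shoots and 38.7 to 47.0 CPM in OX6 shoots, and to 9126 to 10251 CPM in WT roots, with the nitrate transporter gene NRT2.1 (LOC_Os02g02170) at 0 in all 6 shoot libraries. In bulk tissue, fewer cells of a type and less RNA per cell cannot be told apart, and this holds for every result on a cell type's genes below.

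**Figure D1:**
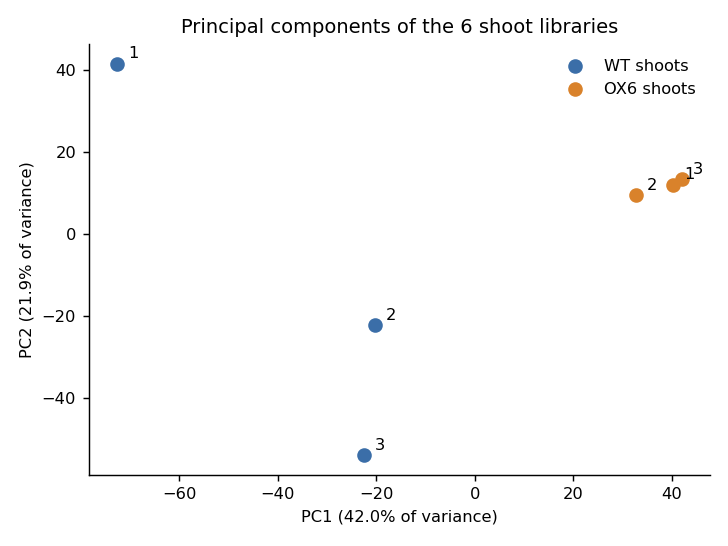
Principal components of log2 CPM in the 6 shoot libraries, with the replicate number beside each point. WT 1 lies at -72.6 on the first component, which carries 42.0% of the variance, and the OX6 libraries lie together between 32.8 and 42.1.

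The gene LOC_Os09g15240, which the deposited table names carotenoid 9,10(9',10')-cleavage dioxygenase 1, is taken here as ZAS from background knowledge, since the labels give no locus. Its transcript was nearly absent from WT shoots and abundant in OX6 shoots. It had 5, 26 and 7 counts in the WT libraries and 64950, 51763 and 53572 counts in the OX6 libraries, or 0.254 ± 0.145 CPM in WT and 1533 ± 84 CPM in OX6 (SD, n = 3). The difference was 12.38 ± 0.21 (SE) on the log2 scale (adjusted p = 5.89e-17, edgeR quasi-likelihood test with Benjamini-Hochberg adjustment over all tested genes, as for every adjusted p below). The deposited table does not separate transgene from native transcripts, so the 2 sources are summed here.

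Counting ZAS, 1481 genes passed an adjusted p of 0.05, which is 5.64% of those tested. Of these, 834 were higher in OX6 (3.18% of tested genes) and 647 were lower (2.46%). The differences were mostly small. The median called rise was 1.67-fold and the median called fall 1.51-fold, and 397 called genes (1.51%) differed by at least 2-fold, 279 of them higher (1.06%) and 118 lower (0.450%). The median difference over all tested genes was -0.0057 on the log2 scale. The count rested on all 3 OX6 libraries. Without WT 1, which stood apart, 770 were higher (2.87% of 26817 tested) and 582 lower (2.17%). The total was 865, 752 and 708 without OX6 1, 2 and 3 in turn, and 1352, 1201 and 1877 without WT 1, 2 and 3. Libraries of the 2 genotypes did not overlap for 1476 of the 1481 called genes, against 24.0% of all tested genes. The calls were made on the same 6 libraries, so this is a description and no separate support for them. Called genes were spread over the genome, with 4.82% to 6.16% of tested genes called on each of the 12 chromosomes.

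**Figure D2:**
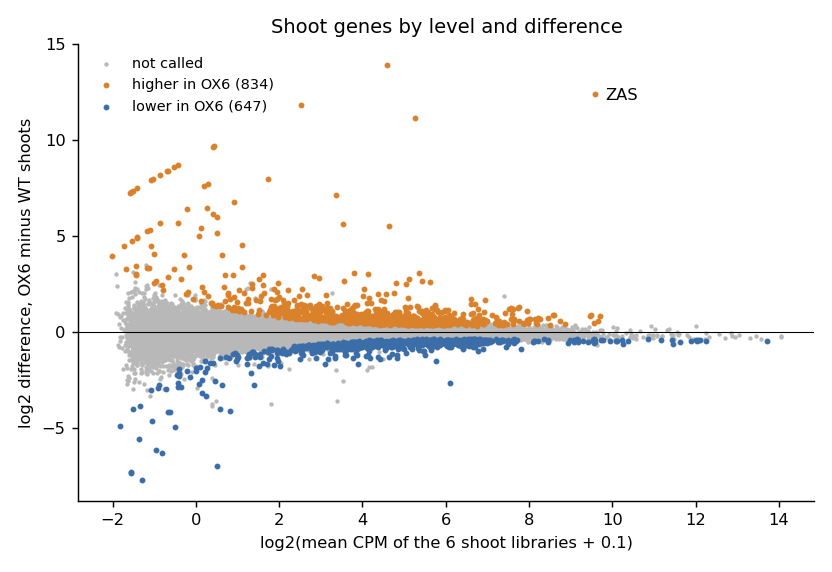
Log2 difference between OX6 and WT shoots against the mean level of each tested gene, log2(CPM + 0.1). Called genes are coloured, 834 higher and 647 lower in OX6. The most abundant called genes all lie just below 0.

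The rises and falls of largest size among genes with a known product, at 5 CPM or more, came from several processes. After ZAS, the widest rise was a Copia-type retrotransposon gene (LOC_Os07g09760), with 0, 2 and 1 counts in WT and 7.07, 5.52 and 6.77 CPM in OX6, a ratio of 285 with a 95% counting interval of 97.3 to 1390. A gene with a reverse transcriptase zinc-binding domain (LOC_Os10g14180) rose 8.65-fold and RICESLEEPER 2 (LOC_Os06g40240), a domesticated transposase of the hAT family, rose 8.49-fold. The cysteine-rich receptor-like kinase gene CRK15 (LOC_Os11g10710) rose 7.05-fold, from 1.41, 1.71 and 2.58 CPM to 13.4, 13.1 and 13.6 CPM. Thiosulfate sulfurtransferase 18 (LOC_Os04g17660), an enzyme that moves sulfur between thiol compounds, stood at 6.07, 9.99 and 9.85 CPM in WT and 58, 56.7 and 66.2 CPM in OX6, a 6.93-fold rise (adjusted p = 1.45e-08). The transcription factor bHLH35 (LOC_Os04g23550) rose 4.7-fold, and TRICHOME BIREFRINGENCE-LIKE 16 (LOC_Os12g33194), of a family that acetylates wall polysaccharides, rose 4.58-fold. These ranges did not overlap between the genotypes, because a lack of overlap was a condition for naming the largest rises and falls. The other 4 of the 12 largest rises, DREB1A, an acid phosphatase, beta-amylase 3 and a nitrate reductase, are described with their groups.

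At the same limit of 5 CPM, falls were smaller. The widest was a membrane protein gene named YjcL (LOC_Os06g01790), at 137, 108 and 112 CPM in WT and 18.2, 18.4 and 21.2 CPM in OX6, a 6.16-fold fall (adjusted p = 1.43e-10). All 3 WT values were over 5 times the OX6 values. SPX2 (LOC_Os02g10780), of a family that senses inositol pyrophosphates and restrains phosphate-starvation transcription factors, fell 3.31-fold from 6.13, 6.22 and 5.82 CPM to 1.95, 1.27 and 2.26 CPM. The ACT domain protein gene ACR3 (LOC_Os02g34990) fell 3.14-fold, arginine decarboxylase 2 (LOC_Os04g01690), which starts polyamine synthesis, 2.62-fold, and the mitochondrial import pore gene TOM40-1 (LOC_Os03g20750) 2.55-fold. A gene named for the Arabidopsis protein At4g14100 (LOC_Os07g09150) fell 2.79-fold, with WT at 88.7, 76.1 and 77.2 CPM and OX6 at 28.9, 28.6 and 29.3 CPM. ETHYLENE-RESPONSIVE TRANSCRIPTION FACTOR 9 (LOC_Os04g52090) fell 2.61-fold, the ZmPK1-like receptor kinase (LOC_Os01g47900) 2.54-fold, a polyketide cyclase-domain gene (LOC_Os05g11210) 2.51-fold, and 2 genes named peroxidase 2, LOC_Os07g48010 and LOC_Os07g48030, 3.21-fold and 2.54-fold. Dirigent protein 4 (LOC_Os11g10850), of a family that guides lignan coupling, fell 2.62-fold (adjusted p = 0.02, above 0.05 without OX6 1, 2 or 3). Leaving out 1 library took the adjusted p above 0.05 for LOC_Os07g48010 (WT 2 or OX6 1 or 3).

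**Figure D3:**
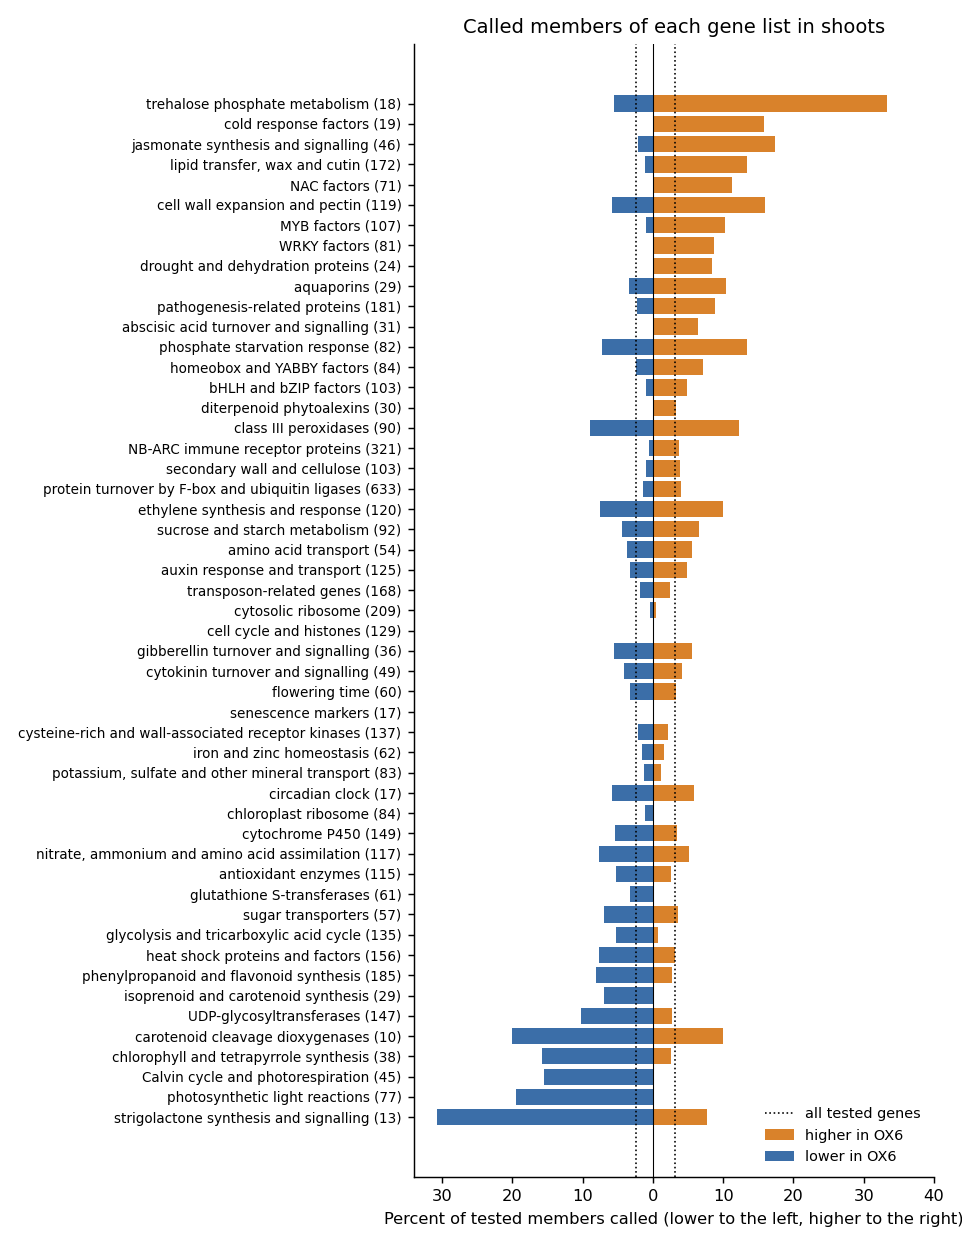
Percent of the tested members of each gene list that were called higher (right) or lower (left) in OX6 shoots, with the number tested in brackets and dotted lines at the shares over all tested genes, 3.18% and 2.46%. Lists of 10 or more tested genes are shown. Trehalose phosphate metabolism is at the top and strigolactone genes and photosynthesis are at the bottom.

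Genes of photosynthesis were lower in OX6, by small amounts and in many genes. Of 77 genes of the light reactions tested, 15 fell and 0 rose, and 68 had a negative difference, against 50.8% of all tested genes. The median was -0.23 on the log2 scale. The summed level of the list was 176795, 160088 and 167649 CPM in WT 1, 2 and 3 and 132299, 139469 and 141961 CPM in OX6 1, 2 and 3. The 2 ranges did not overlap, and WT 1 was the highest. The leaf mesophyll markers given above share members with this list and were lower in OX6 by their sum, with 6 of 26 tested markers lower and 1 higher, and the part of leaf cell content in these falls was not tested. At an unadjusted p of 0.05 the counts were 2 higher and 36 lower, with 0 and 25 called by DESeq2 and 0 and 20 by limma-voom. The calls depended on the libraries, with 10, 17 and 11 without WT 1, 2 and 3 in turn, and 2, 2 and 3 without OX6 1, 2 and 3. The antenna protein gene CHLOROPHYLL A-B BINDING PROTEIN 1 (LOC_Os09g17740) stood at 16619.9, 13616 and 16399 CPM in WT and 10393, 11861 and 11287 CPM in OX6, a 1.39-fold fall (adjusted p = 0.00865, above 0.05 without OX6 1 or 3). FERREDOXIN--NADP REDUCTASE of leaves (LOC_Os02g01340), which makes NADPH from reduced ferredoxin, fell 1.4-fold (adjusted p = 0.00742, above 0.05 without OX6 1 or 2), and PROTON GRADIENT REGULATION 5 (LOC_Os08g45190), a factor of cyclic electron flow, 1.53-fold, from 78, 70.5 and 81.8 CPM to 47.1, 51.9 and 51.9 CPM (adjusted p = 0.00125). Antenna proteins CP24 (LOC_Os04g38410) and CP26 (LOC_Os11g13890) fell 1.36-fold and 1.36-fold, the photosystem II 10 kDa polypeptide (LOC_Os08g10020) 1.33-fold and CURVATURE THYLAKOID 1A (LOC_Os06g15400), which bends grana margins, 1.35-fold. The 10 called genes with the most reads were all genes of photosynthetic carbon gain, the light-harvesting proteins, photosystem subunits, Rubisco activase, plastid aldolase and glyceraldehyde-3-phosphate dehydrogenase, and all 10 were lower. The 10 most abundant genes of any kind took 11.5% to 12.3% of WT shoot counts and 10.4% to 10.6% of OX6 shoot counts. The adjusted p passed 0.05 when 1 library was left out for LOC_Os04g38410 (OX6 1, 2 or 3), LOC_Os11g13890 (OX6 1, 2 or 3), LOC_Os08g10020 (WT 3 or OX6 1, 2 or 3) and LOC_Os06g15400 (WT 3 or OX6 1, 2 or 3).

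The Calvin cycle and photorespiration followed the same direction, with 7 of 45 genes lower and 0 higher, and a median of -0.14. Without adjustment, 2 were higher and 17 lower at p under 0.05, and DESeq2 called 0 and 10 and limma-voom 0 and 8. Lower calls were 6, 10 and 8 without WT 1, 2 and 3 in turn, and 1, 2 and 1 without OX6 1, 2 and 3. Rubisco activase (LOC_Os11g47970), the chaperone that frees Rubisco of inhibitory sugar phosphates, stood at 4198, 3354 and 3609.8 CPM in WT and 2598, 2599 and 2538 CPM in OX6, a 1.44-fold fall (adjusted p = 0.00369). The OX6 libraries were nearly equal for this gene and lay below each WT library. Subunits A and B of plastid glyceraldehyde-3-phosphate dehydrogenase (LOC_Os04g38600 and LOC_Os03g03720) fell 1.5-fold and 1.3-fold, transketolase (LOC_Os06g04270) 1.39-fold, and the photorespiratory enzymes phosphoglycolate phosphatase 1B (LOC_Os04g41340) and glycerate kinase (LOC_Os01g48990) 1.31-fold and 1.31-fold. Chlorophyll and tetrapyrrole genes gave 6 lower and 1 higher among 38. The aerobic cyclase of chlorophyll synthesis (LOC_Os01g17170) fell 1.51-fold, from 1548, 1338 and 1522 CPM to 905, 1054 and 962 CPM (adjusted p = 0.00149). Magnesium chelatase subunit ChlH (LOC_Os03g20700), protochlorophyllide reductase B (LOC_Os10g35370) and glutamyl-tRNA reductase (LOC_Os10g35840), which stand at the branch to chlorophyll, in its light-dependent step and at the pathway's entry, fell 1.38-fold, 1.32-fold and 1.31-fold. Chlorophyllase-2 (LOC_Os10g28370) and heme oxygenase 1 (LOC_Os06g40080), on the breakdown and phytochrome side, fell 1.53-fold and 1.27-fold. The exception was siroheme synthase, which belongs to nitrite reduction and is described next. Lower calls of this list were 4, 5 and 6 without WT 1, 2 and 3 in turn, and 2, 5 and 2 without OX6 1, 2 and 3. Calls lost without 1 library were those of LOC_Os04g38600 (OX6 1 or 3), LOC_Os03g03720 (OX6 1, 2 or 3), LOC_Os06g04270 (OX6 1, 2 or 3), LOC_Os04g41340 (OX6 1, 2 or 3), LOC_Os01g48990 (OX6 1, 2 or 3), LOC_Os03g20700 (WT 1 or OX6 1 or 3), LOC_Os10g35370 (OX6 1 or 3), LOC_Os10g35840 (OX6 1 or 3) and LOC_Os06g40080 (WT 1 or 2 or OX6 1, 2 or 3).

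Genes of nitrate, ammonium and amino acid assimilation moved both ways, with 6 of 117 higher and 9 lower. Nitrate reductase LOC_Os02g53130, the enzyme that turns nitrate into nitrite, stood at 10.4, 7.43 and 6.51 CPM in WT and 46.4, 46 and 50.6 CPM in OX6, a 5.9-fold rise, or 2.56 ± 0.15 (SE) on the log2 scale (adjusted p = 8.03e-09). Each OX6 library was over 4 times each WT library. A second nitrate reductase (LOC_Os08g36480), with more reads, rose 1.54-fold, from 117, 101 and 72.2 CPM to 152, 146 and 150.1 CPM (adjusted p = 0.0113, above 0.05 without OX6 1 or 3). Siroheme synthase (LOC_Os01g44050), which makes the prosthetic group of nitrite reductase and sulfite reductase, stood at 18.9, 18.7 and 18.7 CPM in WT and 50.2, 45.6 and 43.1 CPM in OX6, a 2.46-fold rise (adjusted p = 6.52e-07). The WT libraries were nearly equal for this gene. The nitrate transporter and sensor NRT1/PTR FAMILY 6.3 (LOC_Os10g40600) stood at 21.9, 18.5 and 14.5 CPM in WT and 27.4, 37.3 and 37.2 CPM in OX6 and rose 1.85-fold (adjusted p = 0.00176). Nitrite reductase itself (LOC_Os01g25484) was not called, at 715, 579 and 596 CPM in WT and 542, 601 and 619.8 CPM in OX6 (adjusted p = 0.69), and neither was ferredoxin-dependent glutamate synthase (LOC_Os07g46460, adjusted p = 0.423), both named here after their values were seen. The other members called higher were ammonium transporter AMT2;3 (LOC_Os01g61510), at 2.07, 2.89 and 2.17 CPM in WT and 5.88, 9.23 and 7.87 CPM in OX6, a 3.19-fold rise, glutamate dehydrogenase 2 (LOC_Os04g45970), 1.58-fold, and asparagine synthetase 1 (LOC_Os03g18130), 1.74-fold (adjusted p = 0.0106, above 0.05 without WT 2 or OX6 3).

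The 9 falls included 2 glutamine synthetases and several transporters. Plastid glutamine synthetase (LOC_Os04g56400), which re-fixes ammonium from photorespiration and nitrite reduction, stood at 1431, 1108 and 1319 CPM in WT and 930.4, 953 and 949 CPM in OX6, a 1.36-fold fall (adjusted p = 0.0168, above 0.05 without OX6 1, 2 or 3), and cytosolic glutamine synthetase 1-2 (LOC_Os03g12290) fell 1.51-fold (adjusted p = 0.0128, above 0.05 without OX6 1 or 2). Nitrate transporter NRT2.4 (LOC_Os01g36720) fell 2.25-fold from 10.6, 7.96 and 5.6 CPM to 3.82, 3.35 and 3.57 CPM, and NPF4.5 (LOC_Os11g17970) and both genes named NPF8.3 (LOC_Os06g49210 and LOC_Os10g42870) by 1.46-fold, 1.5-fold and 1.39-fold. Rises on the list were 6, 5 and 6 without WT 1, 2 and 3 in turn, and 5, 6 and 4 without OX6 1, 2 and 3, and falls 4, 5 and 18 without WT 1, 2 and 3 in turn, and 1, 1 and 2 without OX6 1, 2 and 3. Among amino acid transporters, 3 of 54 rose and 2 fell. Amino acid permease 3 (LOC_Os12g08130) rose 2.09-fold, from 42.8, 36.3 and 30.9 CPM to 84.9, 64 and 81 CPM, while permease 6 (LOC_Os12g09300) fell 1.74-fold. For amino acid transport, the 2 lower calls became 8 without WT 3 and 1 without OX6 2 or 3. With 1 library left out, the call was lost for LOC_Os11g17970 (OX6 1, 2 or 3), LOC_Os06g49210 (WT 1 or 2 or OX6 1, 2 or 3) and LOC_Os10g42870 (WT 1 or 2 or OX6 1, 2 or 3).

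**Figure D4:**
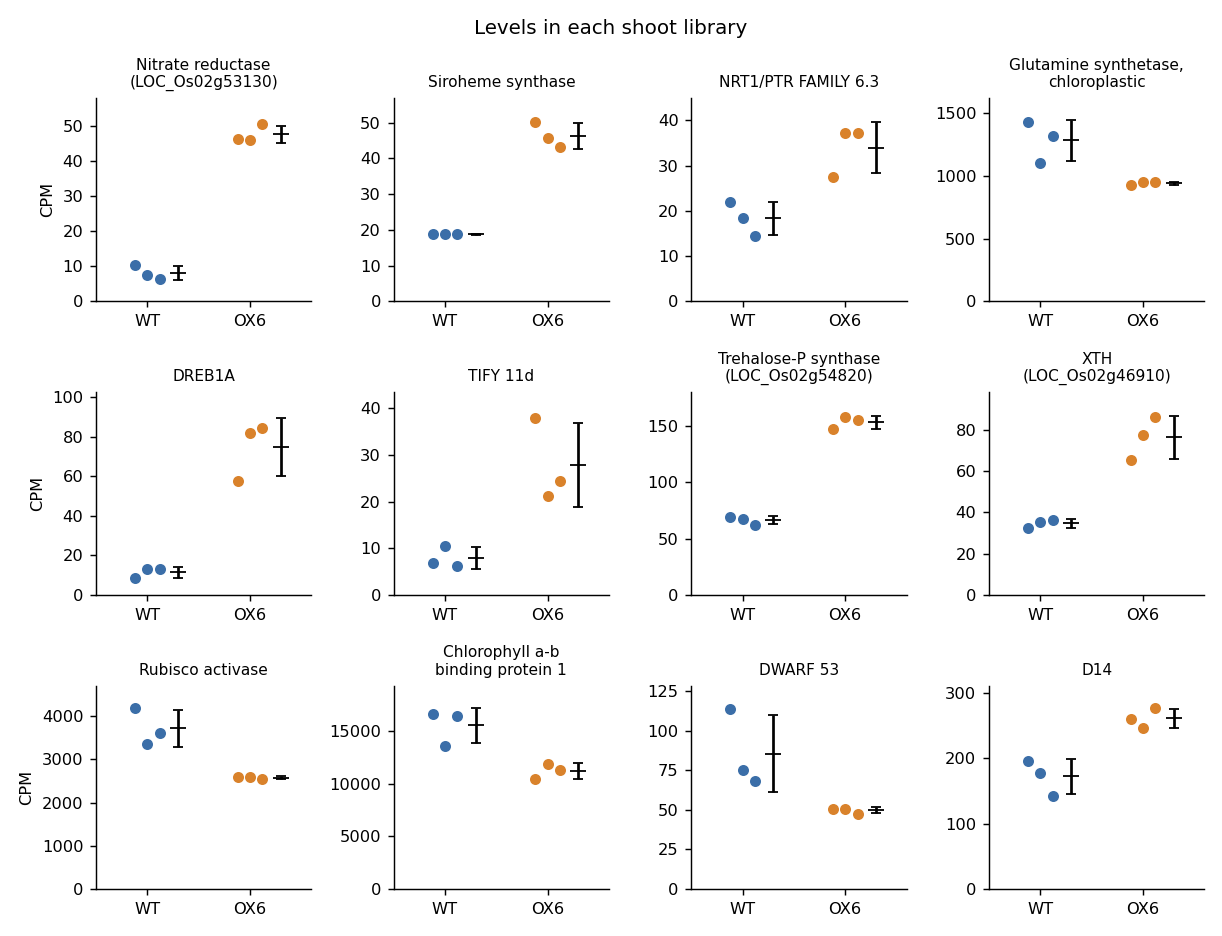
Level of 12 genes in each shoot library, in CPM on axes that start at 0, with the mean and SD of 3 libraries beside the points. Nitrate reductase LOC_Os02g53130 lies at 46.0 to 50.6 CPM in OX6 against 6.51 to 10.4 CPM in WT, while chlorophyll a-b binding protein 1, Rubisco activase and DWARF 53 are lower in OX6.

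Trehalose 6-phosphate is a signal of sucrose supply, made by trehalose phosphate synthases and removed by phosphatases. Of 18 genes of this pathway tested, 6 rose, all of them named as synthases, and 1 phosphatase fell, and 6 rises were counted whichever library was left out. The names do not show synthase activity, and neither activity nor trehalose 6-phosphate was measured. LOC_Os02g54820 stood at 68.7, 67.6 and 62 CPM in WT and 147, 158 and 154 CPM in OX6, a 2.31-fold rise (adjusted p = 5.37e-07). Each OX6 value was over 2 times each WT value. LOC_Os09g23350 rose 2.07-fold, LOC_Os05g44100 1.92-fold, LOC_Os08g34580 3.19-fold from 1.56, 1.65 and 2.03 CPM, LOC_Os08g31980 2.3-fold, and LOC_Os01g54560 1.43-fold. Trehalose-phosphate phosphatase 6 (LOC_Os08g31630) fell 1.32-fold (adjusted p = 0.0198, above 0.05 without WT 2 or OX6 1, 2 or 3). The median of the list, 0.11, was smaller than each of these rises, and 11 members had a positive and 7 a negative difference. For trehalose phosphate metabolism, the 1 lower call became 0 without WT 2 or OX6 1, 2 or 3.

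Sucrose and starch genes were split, with 6 of 92 higher and 4 lower. Beta-amylase 3 (LOC_Os10g41550), named for an enzyme of leaf starch breakdown, stood at 0.541, 1.5 and 1.21 CPM in WT and 6.3, 5.79 and 7.76 CPM in OX6, a 5.93-fold rise (adjusted p = 2.9e-05), and the regulatory protein inactive beta-amylase 9 (LOC_Os03g22790) rose 2.26-fold. Neutral invertase 1 (LOC_Os01g22900), which splits sucrose, stood at 297, 240.5 and 278 CPM in WT and 519, 505 and 495 CPM in OX6, a 1.86-fold rise (adjusted p = 2.68e-05). Cytosolic invertase 1 (LOC_Os11g07440) rose 1.44-fold, and genes named for galactinol-sucrose galactosyltransferases 1 and 6 (LOC_Os08g38710 and LOC_Os06g07600) rose 1.61-fold and 1.41-fold. Sucrose-phosphate synthase 1 (LOC_Os01g69030), the control step of sucrose synthesis, fell 1.52-fold (adjusted p = 0.0378, above 0.05 without WT 1 or OX6 1, 2 or 3), soluble starch synthase 2-2 (LOC_Os02g51070) 1.38-fold, a cell-wall invertase (LOC_Os02g33110) 1.36-fold, and a second beta-amylase (LOC_Os07g35880) 1.68-fold. Of 57 sugar transporters, 2 rose and 4 fell. Hexose carrier SUGAR TRANSPORT PROTEIN 1 (LOC_Os07g37320) stood at 45.2, 45.2 and 33.2 CPM in WT and 96.4, 84.7 and 95.5 CPM in OX6, a 2.24-fold rise (adjusted p = 9.49e-06), and SWEET2b (LOC_Os01g50460) fell 1.85-fold. In glycolysis and the tricarboxylic acid cycle, 1 of 135 rose and 7 fell, or 5.93% called in either direction, against 5.64% of all tested genes. The falls included 4 malate dehydrogenases, the plastid forms LOC_Os08g33720 and LOC_Os07g43700 by 1.64-fold and 1.59-fold, the mitochondrial form LOC_Os05g49880 by 1.45-fold and the glyoxysomal form LOC_Os03g56280 by 1.37-fold. The rise was phosphoenolpyruvate carboxylase kinase 1 (LOC_Os02g41580), at 1.42-fold (adjusted p = 0.00806, above 0.05 without OX6 3). For sucrose and starch metabolism, the 4 lower calls became 1 without OX6 1 or 3 and 2 without OX6 2. The counts of sugar transporters moved too, as the 4 lower calls became 1 without WT 1 or OX6 2, 2 without WT 2 or OX6 1 or 3 and 7 without WT 3. For glycolysis and tricarboxylic acid cycle, the 1 higher call became 2 without WT 2, 4 without WT 3 and 0 without OX6 3, and the 7 lower calls became 3 without OX6 2 and 2 without OX6 3. The call of the following genes needed the library named: LOC_Os11g07440 (WT 1 or OX6 1, 2 or 3), LOC_Os06g07600 (WT 2 or OX6 2 or 3), LOC_Os02g51070 (OX6 1 or 3), LOC_Os02g33110 (WT 2 or OX6 1, 2 or 3), LOC_Os05g49880 (OX6 3) and LOC_Os03g56280 (OX6 1, 2 or 3).

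Several families of stress-linked transcription factors held rises and few or no falls. Over all tested genes, 3.18% were called higher and 2.46% lower, so lists this short would hold few falls at that share. Called members were 15.8% of the cold list and 8.33% of the dehydration list, against 5.64% of all tested genes. The DREB1 factors (also called CBF) switch on genes of the cold response. Of 19 genes on the cold list, 3 rose and 0 fell by edgeR. Unadjusted p-values were under 0.05 for 6 higher and 2 lower members, and the calls were 4 and 0 by DESeq2 and 4 and 0 by limma-voom. DREB1A (LOC_Os09g35030) stood at 8.42, 13.1 and 13.2 CPM in WT and 57.7, 81.8 and 84.3 CPM in OX6, a 6.42-fold rise, or 2.68 ± 0.18 (SE) on the log2 scale (adjusted p = 1.36e-06). DREB1B (LOC_Os09g35010) stood at 6.46, 10.3 and 11.6 CPM in WT and 30.9, 39 and 42.8 CPM in OX6, a 3.95-fold rise, and DREB1G (LOC_Os02g45450) at 0.421, 0.323 and 0.467 CPM in WT and 2.61, 2.78 and 4 CPM in OX6, 7.83-fold. For all 3, the lowest OX6 library was over 2 times the highest WT library. The dehydration proteins, EARLY RESPONSIVE TO DEHYDRATION 15 (LOC_Os07g46670) and DEHYDRATION-INDUCED 19 homolog 3 (LOC_Os01g48190), rose 1.42-fold and 1.37-fold, of 24 tested, and 0 fell. At an unadjusted p of 0.05 the counts were 5 higher and 1 lower, with 3 and 0 called by DESeq2 and 2 and 0 by limma-voom. For drought and dehydration proteins, the 2 higher calls became 1 without OX6 1 and 0 without OX6 3. Some of these calls depended on 1 library, namely those of LOC_Os07g46670 (OX6 3) and LOC_Os01g48190 (OX6 1 or 3).

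Of 81 WRKY factors, 7 rose and 0 fell, or 8.64% called, against 5.64% of all tested genes. Without adjustment, 17 were higher and 1 lower at p under 0.05, and DESeq2 called 9 and 0 and limma-voom 7 and 0. WRKY46 (LOC_Os09g16510) stood at 27.4, 34.4 and 32.6 CPM in WT and 60.3, 61.9 and 70.7 CPM in OX6, a 2.04-fold rise (adjusted p = 1.61e-05), and WRKY24 (LOC_Os01g61080), WRKY53 (LOC_Os08g29660) and WRKY6 (LOC_Os01g14440) rose 2.62-fold, 2.1-fold and 1.93-fold. Of 71 NAC factors, 8 rose and 0 fell, or 11.3% called. Unadjusted p-values were under 0.05 for 11 higher and 4 lower members, and the calls were 9 and 1 by DESeq2 and 7 and 0 by limma-voom. The widest rise of a NAC gene named here was NAC90 (LOC_Os01g64310), at 4.6, 3.65 and 2.53 CPM in WT and 14.6, 14 and 12.1 CPM in OX6, 3.78-fold (adjusted p = 7.3e-06). NAC48 (LOC_Os01g66120) rose 1.5-fold, NAC68 (LOC_Os01g60020) 2.47-fold, NAC74 (LOC_Os01g15640) 1.74-fold and NAC71 (LOC_Os11g08210) 1.55-fold. Of 107 MYB factors, 11 rose and 1 fell, or 11.2% called. MYB30 (LOC_Os07g30130) rose 1.69-fold, a gene named Hv1 (LOC_Os08g43550) 1.89-fold, EFM (LOC_Os03g55590) 1.61-fold and Myb-related 308 (LOC_Os01g65370) 1.83-fold, while Myb-related P (LOC_Os03g19120), named for the maize activator of flavonoid genes, fell 2.63-fold. Among 103 bHLH and bZIP factors 5 rose and 1 fell, or 5.83% called, against 5.64% of all tested genes. Among 84 homeobox and YABBY factors 6 rose and 2 fell, or 9.52% called. HOX28 (LOC_Os06g04850) stood at 3.85, 8.64 and 7.05 CPM in WT and 17.7, 17.5 and 19 CPM in OX6, a 2.75-fold rise. HOX4 (LOC_Os09g29460) was 1.72-fold lower. Rises were 8, 7 and 6 without WT 1, 2 and 3 in turn, and 7, 6 and 5 without OX6 1, 2 and 3 for WRKY, 7, 8 and 8 without WT 1, 2 and 3 in turn, and 5, 6 and 6 without OX6 1, 2 and 3 for NAC, and 9, 8 and 9 without WT 1, 2 and 3 in turn, and 10, 6 and 5 without OX6 1, 2 and 3 for MYB. For MYB factors, the 1 lower call became 2 without WT 3 or OX6 3. The counts of bHLH and bZIP factors moved too, as the 5 higher calls became 8 without WT 1, 9 without WT 3, 3 without OX6 1 and 2 without OX6 3, and the 1 lower call became 0 without WT 1 or OX6 1 or 2 and 2 without WT 3. For homeobox and YABBY factors, the 6 higher calls became 3 without OX6 1 or 2 and 2 without OX6 3. Leaving out 1 library took the adjusted p above 0.05 for LOC_Os11g08210 (OX6 1).

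The 6 jasmonate genes that rose with the smallest adjusted p were all TIFY genes. TIFY (JAZ) proteins hold back jasmonate-responsive transcription and are themselves induced by jasmonate. Over the 46 genes of jasmonate synthesis and signalling tested, 8 rose and 1 fell, and the median was 0.00015. TIFY 11d (LOC_Os10g25290) stood at 6.91, 10.6 and 6.23 CPM in WT and 38, 21.2 and 24.4 CPM in OX6, a 3.49-fold rise (adjusted p = 0.00143, above 0.05 without WT 1). OX6 1 was the highest, and all OX6 values were above all WT values. TIFY 11b (LOC_Os03g08330) rose 1.93-fold, from 30, 38.2 and 35.8 CPM to 79.5, 54.5 and 66.4 CPM, TIFY 11a (LOC_Os03g08310) 3.29-fold, TIFY 10a (LOC_Os03g28940) 1.68-fold, TIFY 6a (LOC_Os08g33160) 1.42-fold and TIFY 11e (LOC_Os10g25230) 4.08-fold (adjusted p = 0.0183, above 0.05 without WT 1 or OX6 1). The member that fell was a gene model named 12-oxophytodienoate reductase 13, at 4.9, 2.94 and 5.49 CPM in WT and 0.616, 0.814 and 0.564 CPM in OX6. On the cytochrome P450 list, 2 genes named CYP94C1, which in Arabidopsis oxidises jasmonoyl-isoleucine, rose from under 1.1 CPM in each WT library. LOC_Os11g05380 stood at 0.571, 1.03 and 0.851 CPM in WT and 5.44, 2.75 and 4.14 CPM in OX6, a 4.93-fold rise (adjusted p = 0.000202), and LOC_Os12g05440 at 0, 0.63 and 0.329 CPM in WT and 5.2, 2.62 and 3.57 CPM in OX6 (adjusted p = 0.00975, above 0.05 without WT 3). For jasmonate synthesis and signalling, the 8 higher calls became 5 without OX6 1, and the 1 lower call became 2 without WT 1 or OX6 3.

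Ethylene-response genes moved both ways, with 12 of 120 higher and 9 lower. ETHYLENE INSENSITIVE 3-like 1 (LOC_Os07g48630), a central factor of ethylene signalling, rose 1.68-fold, from 87.2, 83.2 and 65.5 CPM to 128, 129.5 and 138 CPM, and ERF071 (LOC_Os01g21120) rose 2.25-fold. ERF4 (LOC_Os05g41780), of a repressor type in Arabidopsis, fell 1.56-fold, and 2 genes named RAP2-13, LOC_Os08g31580 and LOC_Os10g22600, fell 1.64-fold and 3.12-fold. Of 125 auxin genes 6 rose and 4 fell. The auxin repressors IAA14 (LOC_Os03g58350) and IAA6 (LOC_Os01g53880) rose 1.98-fold and 2.06-fold, IAA13 (LOC_Os03g53150) and IAA24 (LOC_Os07g08460) 1.39-fold and 1.41-fold, and the growth-linked SAUR genes LOC_Os02g42990 and LOC_Os10g36703 fell 2.51-fold and 1.46-fold. Of 36 gibberellin genes 2 rose and 2 fell. Gibberellin 2-beta-dioxygenase (LOC_Os01g55240), which inactivates gibberellin, rose 2.06-fold (adjusted p = 0.000976), and gibberellin 20 oxidase 2 (LOC_Os01g66100), which makes its precursors, fell 1.59-fold (adjusted p = 0.0436, above 0.05 without WT 1 or 2 or OX6 1 or 2). Of 49 cytokinin genes, the response regulators ORR9 (LOC_Os11g04720) and ORR10 (LOC_Os12g04500) rose 1.38-fold and 1.39-fold, and the degrading enzymes cytokinin dehydrogenase 3 (LOC_Os10g34230) and 4 (LOC_Os01g71310) fell 1.84-fold and 1.78-fold. The adjusted p of ORR9 was the highest of these 4 (adjusted p = 0.0333, above 0.05 without WT 1 or OX6 1 or 3). Called members were 17.5% of the ethylene list, 11.1% of the gibberellin list and 8.16% of the cytokinin list. They were 8% of the auxin list and 6.45% of the abscisic acid list, against 5.64% of all tested genes. Of 31 abscisic acid genes 2 rose and 0 fell. At an unadjusted p of 0.05 the counts were 6 higher and 1 lower, with 3 and 1 called by DESeq2 and 2 and 0 by limma-voom. The calls were abscisic acid 8'-hydroxylase 1 (LOC_Os02g47470), which degrades the hormone, at 5.74, 6.05 and 6.2 CPM in WT and 10.4, 17 and 17.2 CPM in OX6, 2.47-fold, and the receptor gene PYL4 (LOC_Os03g18600), 1.7-fold. For ethylene synthesis and response, the 12 higher calls became 7 without OX6 2 and 5 without OX6 3, and the 9 lower calls became 5 without WT 2 or OX6 2. The counts of auxin response and transport moved too, as the 6 higher calls became 10 without WT 3 and 3 without OX6 2 or 3, and the 4 lower calls became 7 without WT 3 and 2 without OX6 1. For gibberellin turnover and signalling, the 2 lower calls became 0 without WT 1 or 2 or OX6 1 or 2 and 1 without OX6 3. The counts of cytokinin turnover and signalling moved too, as the 2 higher calls became 1 without WT 1 and 0 without OX6 1 or 3. For abscisic acid turnover and signalling, the 2 higher calls became 4 without WT 3. The adjusted p passed 0.05 when 1 library was left out for LOC_Os03g53150 (OX6 2 or 3), LOC_Os07g08460 (WT 2 or OX6 2 or 3) and LOC_Os12g04500 (OX6 1 or 3).

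Strigolactone genes gave the highest share of called members of the lists of 10 or more genes other than trehalose, with 1 of 13 higher and 4 lower. The receptor gene D14 (LOC_Os03g10620) stood at 196, 178 and 143 CPM in WT and 260.4, 247 and 276 CPM in OX6, a 1.52-fold rise (adjusted p = 0.00361). Transcripts of the repressors, whose proteins the receptor targets for breakdown, were lower in OX6, and protein was not measured. DWARF 53 (LOC_Os11g01330) stood at 114, 75.2 and 68 CPM in WT and 50.7, 50.7 and 47.5 CPM in OX6, a 1.72-fold fall (adjusted p = 0.007), with WT 1 the highest, and DWARF 53-LIKE (LOC_Os12g01360) fell 1.58-fold (adjusted p = 0.0131, above 0.05 without OX6 1 or 3). D53 and D53-LIKE are close paralogs, so reads may be split between them by the counting. Of the genes named for synthesis, one named beta-carotene isomerase D27 (LOC_Os08g02210) fell 1.3-fold (adjusted p = 0.0228, above 0.05 without OX6 1, 2 or 3). Its name alone does not show that it is the D27 of strigolactone synthesis rather than a related gene. A cytochrome P450 of the MAX1 family (LOC_Os02g12890) fell 1.53-fold (adjusted p = 0.0287, above 0.05 without WT 1 or OX6 1, 2 or 3). Lower calls were 3, 4 and 4 without WT 1, 2 and 3 in turn, and 1, 2 and 1 without OX6 1, 2 and 3.

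Among 10 carotenoid cleavage dioxygenases, ZAS rose and 2 fell. ZAS is the overexpressed gene, so its rise was fixed by the design and does not count towards a share. Of all tested genes, 2.46% were called lower. CCD8 homolog A (LOC_Os01g38580), named for the strigolactone step after D27 and CCD7, stood at 18.5, 16.9 and 10.4 CPM in WT and 7.9, 10.2 and 9.1 CPM in OX6, a 1.69-fold fall (adjusted p = 0.0254, above 0.05 without WT 1 or 2 or OX6 1, 2 or 3), and CCD4 (LOC_Os02g47510), which cleaves carotenoids in plastids, fell 1.33-fold from 1096, 854 and 961 CPM to 694, 737 and 749.8 CPM (adjusted p = 0.0264, above 0.05 without WT 1 or OX6 1, 2 or 3). Of 29 genes of isoprenoid and carotenoid synthesis, 0 rose and 2 fell, or 6.9%. Without adjustment, 2 were higher and 7 lower at p under 0.05, and DESeq2 called 1 and 2 and limma-voom 0 and 2. Beta-carotene hydroxylase 2 (LOC_Os04g48880), which makes zeaxanthin, stood at 44, 32.6 and 35.6 CPM in WT and 20, 21.2 and 20.5 CPM in OX6, a 1.82-fold fall (adjusted p = 0.000239), and phytoene synthase (LOC_Os12g43130), the entry step to carotenoids, at 88.2, 97.5 and 83.5 CPM in WT and 72.2, 63.5 and 56.1 CPM in OX6, a 1.4-fold fall (adjusted p = 0.0131, above 0.05 without WT 2 or OX6 2 or 3). For carotenoid cleavage dioxygenases, the 2 lower calls became 1 without WT 1 or 2 and 0 without OX6 1, 2 or 3. The counts of isoprenoid and carotenoid synthesis moved too, as the 2 lower calls became 1 without OX6 2 or 3.

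Genes of the growing wall and of the surface layer rose more often than they fell. Of 119 genes of wall loosening and pectin, 19 rose and 7 fell. Xyloglucan endotransglucosylase/hydrolases (XTH) cut and rejoin the xyloglucan tethers of the wall. XTH LOC_Os02g46910 stood at 32.4, 35.3 and 36.3 CPM in WT and 65.3, 77.3 and 86 CPM in OX6, a 2.2-fold rise (adjusted p = 5.65e-06), and XTH22 (LOC_Os06g48160) and XTH24 (LOC_Os04g51460) rose 1.98-fold and 2.75-fold. Expansin-like A1 (LOC_Os03g04020) stood at 66.9, 65.1 and 67.9 CPM in WT and 121, 129.7 and 137 CPM in OX6, a 1.94-fold rise, and expansin-like A2 (LOC_Os10g39640) rose 2.54-fold. The falls included expansin-A2 (LOC_Os01g60770), 2.3-fold, expansin-A4 (LOC_Os05g39990), 1.39-fold, expansin-B11 (LOC_Os02g44108), 1.69-fold, and the XTH genes LOC_Os07g29750 and LOC_Os10g42670, 2.24-fold and 1.78-fold. Rises were 17, 15 and 20 without WT 1, 2 and 3 in turn, and 15, 13 and 11 without OX6 1, 2 and 3, and falls 11, 5 and 10 without WT 1, 2 and 3 in turn, and 4, 5 and 4 without OX6 1, 2 and 3. Secondary wall and cellulose genes gave 4 higher and 1 lower of 103, or 4.85% called, against 5.64% of all tested genes. For secondary wall and cellulose, the 4 higher calls became 2 without WT 2 and 0 without OX6 2 or 3, and the 1 lower call became 2 without WT 2, 11 without WT 3 and 0 without OX6 1 or 3. Calls lost without 1 library were those of LOC_Os05g39990 (WT 2 or OX6 1, 2 or 3) and LOC_Os02g44108 (WT 2 or OX6 1 or 3).

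Of 172 genes of lipid transfer, wax and cutin, which build the cuticle of the epidermis, 23 rose and 2 fell, with a median of 0.17. Ketoacyl-CoA synthases extend the fatty acids of waxes. KCS11 (LOC_Os02g11070) stood at 3.52, 4.12 and 3.24 CPM in WT and 11.1, 8.54 and 9.18 CPM in OX6, a 2.64-fold rise, and KCS20 (LOC_Os03g06705) at 1.23, 1.99 and 1.89 CPM in WT and 6.33, 7.21 and 4.89 CPM in OX6, 3.56-fold. Lipid-transfer proteins 3 (LOC_Os12g02300 and LOC_Os11g02350), paralogs whose reads the counting may share, rose 1.84-fold and 1.64-fold. CYP77A3 (LOC_Os06g46680) of the P450 list rose 1.59-fold. Rises on the lipid list were 18, 25 and 26 without WT 1, 2 and 3 in turn, and 13, 12 and 11 without OX6 1, 2 and 3. Of 29 aquaporins 3 rose and 1 fell, with PIP2-6 (LOC_Os04g16450) 1.66-fold and TIP2-2 (LOC_Os06g22960) 1.4-fold higher and PIP2-4 (LOC_Os07g26630) 1.77-fold lower. Class III peroxidases, secreted enzymes that act on wall phenolics, split into 11 higher and 8 lower of 90. Peroxidase 16 (LOC_Os06g48030) and peroxidase 55 (LOC_Os09g32964) rose 2.09-fold and 2.17-fold, and the cationic peroxidases SPC4 (LOC_Os04g59260 and LOC_Os04g59160) fell, the first from 9.41, 15 and 17.7 CPM to 6.11, 6.49 and 5.08 CPM. For lipid transfer, wax and cutin, the 2 lower calls became 0 without WT 2 or OX6 2, 7 without WT 3 and 1 without OX6 1 or 3. The counts of aquaporins moved too, as the 3 higher calls became 1 without OX6 2 or 3, and the 1 lower call became 2 without WT 3 and 0 without OX6 2 or 3. For class III peroxidases, the 11 higher calls became 6 without OX6 2 and 7 without OX6 3, and the 8 lower calls became 5 without WT 2 or OX6 1 or 2 and 4 without OX6 3. With 1 library left out, the call was lost for LOC_Os06g22960 (OX6 2 or 3) and LOC_Os07g26630 (OX6 2 or 3).

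Pathogenesis-related genes were called higher more often than lower, and enzymes of phenolic metabolism were called lower more often than higher. Of 181 pathogenesis-related genes, 16 rose and 4 fell, and the median was -0.0055. A Bowman-Birk trypsin inhibitor (LOC_Os03g60840) stood at 88.5, 129 and 118 CPM in WT and 252, 255 and 289.9 CPM in OX6, a 2.38-fold rise (adjusted p = 7.89e-06). Germin-like proteins 3-2 (LOC_Os03g44880), 8-3 (LOC_Os08g08970) and 8-14 (LOC_Os08g35760) rose 2.38-fold, 2.21-fold and 1.79-fold, and a thaumatin-like protein (LOC_Os12g43450) 2.01-fold, while chitinase 9 (LOC_Os05g33140) fell 1.68-fold. Momilactone A synthase (LOC_Os07g46852), of the diterpenoid phytoalexin pathway, stood at 45.6, 58.7 and 50.8 CPM in WT and 169.7, 109 and 146 CPM in OX6, a 2.74-fold rise (adjusted p = 9e-06), and was the only one called of 30 tested on that list. A germacrene D synthase (LOC_Os04g27670) rose 2.13-fold, 1 of 6 terpene synthases. Of 321 NB-ARC immune receptor genes 12 rose and 2 fell, which is near the share over all genes. RGA2 (LOC_Os04g53050) rose 5.18-fold from under 0.6 CPM. Of 137 cysteine-rich and wall-associated receptor kinase genes 3 rose and 3 fell, or 4.38% called, against 5.64% of all tested genes. For pathogenesis-related proteins, the 4 lower calls became 11 without WT 3, 7 without OX6 1 and 2 without OX6 2 or 3. The counts of NB-ARC immune receptor proteins moved too, as the 12 higher calls became 7 without OX6 1 or 2 and 6 without OX6 3, and the 2 lower calls became 0 without WT 2 or OX6 2 or 3, 5 without WT 3 and 1 without OX6 1. For cysteine-rich and wall-associated receptor kinases, the 3 lower calls became 1 without WT 2 and 0 without OX6 2 or 3. The counts of diterpenoid phytoalexins moved too, as the 1 higher call became 2 without WT 2.

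Of 185 genes of phenylpropanoid and flavonoid synthesis, 5 rose and 15 fell. Phenylalanine ammonia-lyase (LOC_Os12g33610), the entry to the pathway, stood at 60.3, 65.1 and 49.9 CPM in WT and 32.4, 29.2 and 28.6 CPM in OX6, a 1.94-fold fall (adjusted p = 4.27e-05). Flavonoid 3'-monooxygenase (LOC_Os10g17260) stood at 39.2, 34.1 and 32.6 CPM in WT and 16.5, 12.7 and 14.2 CPM in OX6, a 2.44-fold fall (adjusted p = 4.76e-06). Cinnamate 4-monooxygenase (LOC_Os05g25640) and cinnamoyl-CoA reductase 1 (LOC_Os08g34280), the second step and the lignin branch, fell 1.48-fold and 1.44-fold, and the flavanone C-glucosyltransferase (LOC_Os06g18010) 1.45-fold. Rises included spermidine hydroxycinnamoyltransferases 1 (LOC_Os12g27220) and 2 (LOC_Os12g27254), which join hydroxycinnamic acids to polyamines, at 3.77-fold (adjusted p = 0.0148, above 0.05 without WT 1, 2 or 3) and 2.22-fold (adjusted p = 0.00348, above 0.05 without WT 1). Falls on this list were 11, 9 and 24 without WT 1, 2 and 3 in turn, and 6, 2 and 6 without OX6 1, 2 and 3. Of 147 UDP-glycosyltransferases 4 rose and 15 fell, with falls 10, 11 and 22 without WT 1, 2 and 3 in turn, and 9, 8 and 8 without OX6 1, 2 and 3. A gene named cis-zeatin O-glucosyltransferase 1 (LOC_Os04g46990), which stores cytokinin, fell 1.93-fold, and one named 7-deoxyloganetin glucosyltransferase (LOC_Os02g28900) fell 2.48-fold, from 20.1, 18.8 and 18.8 CPM to 6.89, 7.3 and 9.05 CPM. Of 61 glutathione S-transferases 0 rose and 2 fell, or 3.28% called, against 5.64% of all tested genes. Unadjusted p-values were under 0.05 for 6 higher and 12 lower members, and the calls were 0 and 4 by DESeq2 and 0 and 2 by limma-voom. Of 149 cytochrome P450 genes 5 rose and 8 fell, with falls 3, 8 and 12 without WT 1, 2 and 3 in turn, and 4, 3 and 3 without OX6 1, 2 and 3. For phenylpropanoid and flavonoid synthesis, the 5 higher calls became 3 without WT 1 or 2 or OX6 1. The counts of UDP-glycosyltransferases moved too, as the 4 higher calls became 2 without WT 2 or OX6 2 and 1 without OX6 1 or 3. For glutathione S-transferases, the 2 lower calls became 1 without WT 3 or OX6 1 or 3 and 0 without OX6 2. The counts of cytochrome P450 moved too, as the 5 higher calls became 3 without OX6 1, 2 or 3. The call of the following genes needed the library named: LOC_Os05g25640 (OX6 2 or 3), LOC_Os08g34280 (OX6 2) and LOC_Os06g18010 (OX6 1 or 2).

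Phosphate-related genes moved both ways. Of 82 tested, 11 rose and 6 fell. Rises included genes named acid phosphatase 1, among them LOC_Os06g36390, at 1.98, 3.41 and 4.2 CPM in WT and 20.4, 18.9 and 21.2 CPM in OX6, a 6.26-fold rise (adjusted p = 4.28e-07), and LOC_Os05g10310, 1.68-fold, and phosphate transporter PHT1-1 (LOC_Os03g05620), at 24.1, 27.5 and 19.4 CPM in WT and 42.6, 43.2 and 42.2 CPM in OX6, 1.8-fold. Falls were SPX2, given above, purple acid phosphatase 22 (LOC_Os11g05400), 1.73-fold, the plastid transporter PHT2-1 (LOC_Os02g38020), 1.41-fold, PHT1-4 (LOC_Os04g10750), 1.66-fold, purple acid phosphatase 27 (LOC_Os08g41880), 1.53-fold, and a glycerol-3-phosphate transporter (LOC_Os04g46880), 1.37-fold. Rises were 9, 10 and 10 without WT 1, 2 and 3 in turn, and 6, 8 and 5 without OX6 1, 2 and 3, and falls 4, 5 and 7 without WT 1, 2 and 3 in turn, and 4, 2 and 2 without OX6 1, 2 and 3. Of 62 genes of iron and zinc homeostasis, YSL13 (LOC_Os04g44300) rose 2.06-fold (adjusted p = 0.0396, above 0.05 without WT 1 or 3 or OX6 1, 2 or 3) and nicotianamine synthase 3 (LOC_Os07g48980), which makes a metal chelator, fell 1.67-fold. Of 83 transporters of potassium, sulfate and further minerals, 1 was higher and 1 lower, the potassium transporters 7 (LOC_Os07g47350), 1.78-fold higher, and 24 (LOC_Os06g15910), 1.7-fold lower. Called members were 3.23% of the iron and zinc list and 2.41% of the mineral list, against 5.64% of all tested genes. For iron and zinc homeostasis, the 1 higher call became 0 without WT 1 or OX6 1, 2 or 3 and 2 without WT 2, and the 1 lower call became 3 without WT 2 or 3 or OX6 1 and 0 without OX6 2. The counts of potassium, sulfate and other mineral transport moved too, as the 1 lower call became 2 without WT 1 or 3. Some of these calls depended on 1 library, namely those of LOC_Os02g38020 (OX6 2 or 3), LOC_Os04g10750 (WT 1 or 2 or OX6 1, 2 or 3), LOC_Os08g41880 (OX6 2 or 3), LOC_Os04g46880 (WT 1 or OX6 1, 2 or 3) and LOC_Os07g48980 (OX6 2).

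Of 156 heat shock proteins and factors, 5 rose and 12 fell. A DnaJ chaperone (LOC_Os06g50230) stood at 105, 116 and 132 CPM in WT and 247, 277 and 301 CPM in OX6, a 2.34-fold rise (adjusted p = 2.11e-06), and the heat stress factors C-1b (LOC_Os01g53220) and A-3 (LOC_Os02g32590) rose 2.06-fold and 1.6-fold. The falls held general chaperones, HSP81-1 (LOC_Os08g39140) of the HSP90 family at 1.42-fold and an HSC70 (LOC_Os03g16860) at 1.48-fold. Falls on the heat list were 14, 9 and 13 without WT 1, 2 and 3 in turn, and 7, 6 and 2 without OX6 1, 2 and 3. Of 115 antioxidant genes 3 rose and 6 fell, with thioredoxin-like 1-1 (LOC_Os07g48510) 2.02-fold higher and catalase-1 (LOC_Os03g03910) 1.36-fold lower (adjusted p = 0.0215, above 0.05 without WT 1 or OX6 1, 2 or 3). Of 17 clock genes, ELF3-like protein 2 (LOC_Os01g38530) rose, at 9.56, 12.6 and 10.9 CPM in WT and 25.6, 22.8 and 24.2 CPM in OX6, 2.19-fold (adjusted p = 3.05e-05), and REVEILLE 2 (LOC_Os06g51260) fell 1.36-fold. Of 60 flowering-time genes 2 rose and 2 fell, with MADS56 (LOC_Os10g39130) at 145, 171 and 145 CPM in WT and 89.2, 79.2 and 83.4 CPM in OX6, a 1.83-fold fall (adjusted p = 4.06e-05). Of 633 F-box and ubiquitin ligase genes 25 rose and 9 fell, and of 168 transposon-related genes 4 rose and 3 fell. These are 5.37% and 4.17% called, against 5.64% of all tested genes. F-box/kelch-repeat protein At2g44130 (LOC_Os11g14140) rose 2-fold and E3 ligase MIEL1 (LOC_Os10g31850) 2.46-fold, while E3 ligase RHA2B (LOC_Os02g45710) fell 2.24-fold. For antioxidant enzymes, the 6 lower calls became 3 without WT 2 and 0 without OX6 1, 2 or 3. The counts of circadian clock moved too, as the 1 lower call became 0 without OX6 2 or 3. For flowering time, the 2 higher calls became 0 without OX6 1 or 3 and 1 without OX6 2, and the 2 lower calls became 1 without OX6 1, 2 or 3. The counts of protein turnover by F-box and ubiquitin ligases moved too, as the 25 higher calls became 13 without OX6 3, and the 9 lower calls became 14 without WT 3 and 5 without OX6 1, 2 or 3. For transposon-related genes, the 4 higher calls became 2 without OX6 2 or 3, and the 3 lower calls became 1 without OX6 1 and 0 without OX6 2 or 3. Leaving out 1 library took the adjusted p above 0.05 for LOC_Os08g39140 (OX6 3) and LOC_Os06g51260 (WT 2 or OX6 2 or 3).

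Few genes of cell division and of protein synthesis were called. Of 129 cell cycle and histone genes, 0 were called by edgeR in either direction. At an unadjusted p of 0.05 the counts were 6 higher and 3 lower, with 1 and 0 called by DESeq2 and 0 and 0 by limma-voom. Without WT 3, however, 10 were called higher, and without WT 1, 1 was called lower. Of 209 cytosolic ribosomal proteins 1 rose and 1 fell, with a median of -0.10. In this list 154 members had a negative difference, against 50.8% of all tested genes. Unadjusted p-values were under 0.05 for 2 higher and 22 lower members, and the calls were 1 and 3 by DESeq2 and 0 and 1 by limma-voom. Of 84 plastid ribosomal proteins 0 rose and 1 fell. Without adjustment, 1 were higher and 5 lower at p under 0.05, and DESeq2 called 0 and 1 and limma-voom 0 and 1. Of 17 senescence markers tested, 0 were called by edgeR. Unadjusted p-values were under 0.05 for 2 higher and 4 lower members, and the calls were 1 and 0 by DESeq2 and 0 and 0 by limma-voom. NYC1 (LOC_Os01g12710), which starts chlorophyll b breakdown, stood at 203, 215 and 187 CPM in WT and 263, 247 and 239 CPM in OX6 (adjusted p = 0.0853). Summed levels of all 32 senescence markers were 549 to 630.4 CPM in WT and 594 to 649.9 CPM in OX6. Those of 32 stem base and meristem markers were 313 to 407 CPM in WT and 349 to 378 CPM in OX6, with 0 called by edgeR. The parts of organ composition and of leaf age in the results above were not tested beyond these sums. For cytosolic ribosome, the 1 higher call became 0 without WT 1 or OX6 1, 2 or 3, and the 1 lower call became 2 without WT 1 and 0 without WT 3 or OX6 1, 2 or 3. The counts of chloroplast ribosome moved too, as the 1 lower call became 0 without WT 2 or OX6 1, 2 or 3.

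Some called genes lay side by side on the chromosomes. Positions are those of the deposited table, whose genome build is not given in the sources used here. Tested genes in genome order held 13 stretches in which at least 4 of 10 neighbours were called in 1 direction, 11 of rises and 2 of falls. On chromosome 4 (24655105 to 24709910), chitinase 4 genes LOC_Os04g41620 and LOC_Os04g41640 and chitinase 5 LOC_Os04g41680 rose 1.68-fold, 1.48-fold and 1.68-fold beside the factor bHLH113. On chromosome 5 (5472689 to 5641118), 4 acid phosphatase 1 genes rose with a related stem glycoprotein gene, and on chromosome 6 (21372363 to 21501374) acid phosphatase genes LOC_Os06g36390 and LOC_Os06g36400 rose with an iron exporter of the solute carrier 40 family (LOC_Os06g36450, 2.41-fold). On chromosome 10 (2990897 to 3032720), 5 neighbouring Ole e I-like pollen protein genes rose together, LOC_Os10g05970 from 205, 246 and 222 CPM to 326, 468 and 332 CPM, with OX6 2 the highest for this gene. The fall on chromosome 9 (17414087 to 17469426) held 4 genes with an alpha/beta hydrolase fold, with carboxylesterase 12 (LOC_Os09g28640) at 91.7, 78.1 and 82.5 CPM in WT and 52.9, 50.9 and 56.7 CPM in OX6. The other fall, on chromosome 10 (16260846 to 16577743), held 6 genes, 5 of them with neither a protein name nor a domain in the table. LOC_Os10g31540 of this stretch stood at 0.782, 3.18 and 3.93 CPM in WT and 0.246, 0.211 and 0.0269 CPM in OX6. Tandem copies can share reads, so the values of single genes within these stretches are uncertain.

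The widest differences were in genes that were nearly silent in WT shoots. In 35 called genes the fitted difference was at least 5 on the log2 scale, a 32-fold rise, and 19 of them had neither a protein name nor a Pfam domain and 7 were models without a locus name in the deposited table. These genes passed the count filter through the OX6 libraries, so they had to differ, and their number is given as a description. In OX6, 27 of the 35 were under 5 CPM. LOC_Os02g53240, named after its values were seen, stood at 0, 0.0484 and 0.0275 CPM in WT and 76.5, 86 and 68.2 CPM in OX6. A group of 8 genes had under 3 counts over all WT shoot libraries and at least 1 CPM in each OX6 library, and no gene had the reverse pattern. LOC_Os03g18779, LOC_Os07g26100 and LOC_Os03g02470, on 2 chromosomes, carry the same domain of unknown function. LOC_Os03g18779 had 0 counts in WT and 49.5, 44.9 and 49.6 CPM in OX6, at least 2110-fold higher against a floor of 3 counts over the WT group. LOC_Os07g26100 had 0 counts in WT and 11.1, 9.32 and 13.4 CPM in OX6, at least 497-fold higher. LOC_Os01g49750 and LOC_Os07g13390 were at least 111-fold and 107-fold higher and a model without a locus name at least 56.1-fold higher by the same floor, and LOC_Os08g10612 and another such model had 1 count each over the WT libraries. In 7 called genes the difference was at least 32-fold in the other direction, all under 5 CPM in WT. The leaf thionin gene DB4 (LOC_Os06g32240), an antimicrobial peptide gene also named after its values were seen, had 0.481, 2.5 and 4.94 CPM in WT and 0, 0.0603 and 0 CPM in OX6, and its WT values were spread widely, with WT 3 the highest. The adjusted p passed 0.05 when 1 library was left out for LOC_Os06g32240 (OX6 1).

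Roots of the same genotypes gave a second comparison with its own WT libraries. There, 753 of 26574 tested genes (2.83%) were called. Of 23939 genes tested in both organs, 171 were called in both, which is 11.5% of the shoot calls and 22.7% of the root calls, and 137 of these went in the same direction. Of the 35 genes at least 32-fold higher in OX6 shoots, 26 passed the count filter in roots and were called higher there, and 9 were not tested in roots. A gene near-silent in WT roots could pass that filter only through the OX6 roots, so this count is a description and no sign that the organs act alike. Of the 7 at least 32-fold lower in shoots, 5 were tested in roots and 0 were called (edgeR). A missing call in roots does not show a difference from shoots, so the difference between organs was tested by the interaction of genotype and organ in a fit over all 12 libraries, which called 572 of 29042 genes (1.97%), 391 of them called in shoots. The interaction was called for 3 of the 35 higher genes and 4 of the 7 lower genes. Both sets were picked by their shoot difference, so these counts are a description.

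The other 34 genes called in both organs went in opposite directions, and the interaction was called for all 34. Since these genes were picked by called, opposite differences in the same libraries, that outcome was close to fixed in advance. The 34 genes included several of the nitrate genes above. Nitrate reductase LOC_Os02g53130, 5.9-fold higher in OX6 shoots, stood at 226 ± 14.9 CPM in WT roots and 153 ± 7.45 CPM in OX6 roots (SD, n = 3, as for the root levels that follow; log2 difference -0.56, adjusted p = 9.13e-05), and the interaction was 3.13 on the log2 scale (adjusted p = 2.19e-08). Siroheme synthase LOC_Os01g44050 stood at 159 ± 5.76 CPM in WT roots and 124 ± 1.07 CPM in OX6 roots (adjusted p = 0.00212, interaction adjusted p = 2.15e-07), and NRT1/PTR FAMILY 6.3 (LOC_Os10g40600) at 284 ± 12.3 CPM in WT roots and 202 ± 31.4 CPM in OX6 roots (adjusted p = 0.0124, interaction adjusted p = 0.000916). DREB1A (LOC_Os09g35030) stood at 6.9 ± 1.58 CPM in WT roots and 2.72 ± 0.433 CPM in OX6 roots (log2 difference -1.34, adjusted p = 0.000484), and its interaction was 4.03 (adjusted p = 2.61e-06). Cytokinin dehydrogenase 3 (LOC_Os10g34230) and purple acid phosphatase 22 (LOC_Os11g05400), both lower in OX6 shoots, were higher in OX6 roots by 0.48 and 1.15 on the log2 scale. CCD8 homolog A (LOC_Os01g38580) was lower in OX6 shoots and stood at 2.73 ± 0.675 CPM in WT roots and 6.42 ± 1.87 CPM in OX6 roots (adjusted p = 0.011, interaction adjusted p = 0.00358). Other genes were called in 1 direction in both organs. TOM40-1 (LOC_Os03g20750) and SPX2 (LOC_Os02g10780) were lower in OX6 in both organs, by -1.01 and -2.23 on the log2 scale in roots, with interactions that were not called (adjusted p = 0.291 and 0.574). The response regulators ORR9 (LOC_Os11g04720) and ORR10 (LOC_Os12g04500) rose in both, by 0.46 and 0.47 in shoots and by more, 1.40 and 1.41, in roots, with interactions called (adjusted p = 0.00787 and 0.00552).

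**Figure D5:**
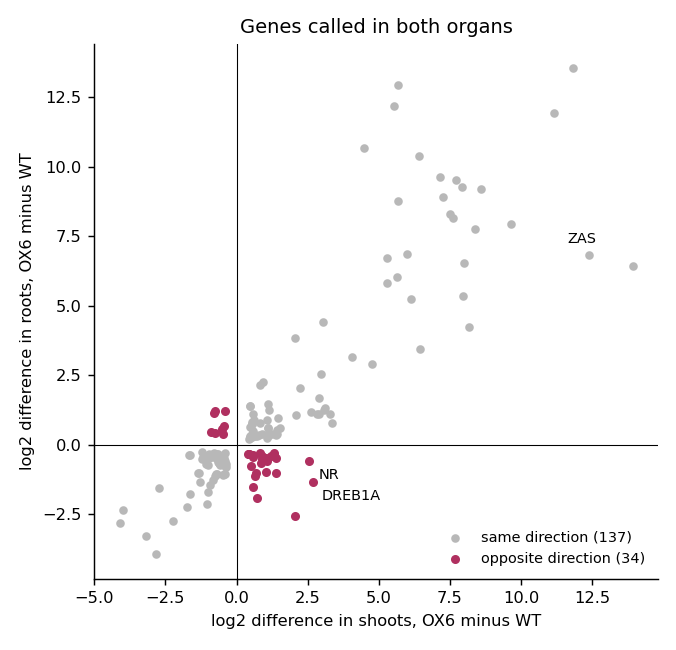
Log2 difference between OX6 and WT in roots against that in shoots for the 171 genes called in both organs. Genes in the same direction are grey (137) and genes in opposite directions red (34), among them nitrate reductase (NR) and DREB1A.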

How the data were processed

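RNA-seq was analysed from 3 WT and 3 OX6 shoot libraries, with 3 WT and 3 OX6 root libraries used for the comparison between organs. The authors deposited 1 table of raw read counts per gene. Per the submitters' processing notes, the tools were HISAT2 2.0.5 and featureCounts 1.5.0-p3. No source used here names the build, gene models or strandedness, so overlapping genes cannot be told apart. Groups came from the labels. Genes were kept by edgeR's filterByExpr (minimum count 10, minimum total 15), scaled by TMM and tested within the 6 shoot libraries with edgeR 4.0.16's quasi-likelihood test in R 4.3.3, with Benjamini-Hochberg adjustment and a threshold of 0.05. DESeq2 1.42.0 and limma 3.58.1 (voom) were alternatives. CPM are scaled without a prior count. Counting intervals are 95% and, like the floor of 3 counts, cover counting error only.

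Named genes were the targeted gene, the 12 largest rises and falls, up to 6 called members per list and direction, the 10 most abundant called genes, genes under 3 counts in 1 genotype, and runs of neighbours. The largest rises and falls were taken from called genes with at least 5 CPM, a known product and no overlap between the genotypes. Lists were matched on protein names and trimmed on names, and the light-reaction list leaves out models named for plastid-encoded subunits. The comparison, the gene lists and the tests were chosen with earlier results of these data known. The scripts were tested on simulated data.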

Additional observations from a re-analysis of the deposited data

Results flagged for a closer look

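The effect of OX6 differed between shoots and roots for the 40 named genes listed here, by the interaction of genotype and organ over all 12 libraries (edgeR quasi-likelihood test, adjusted p under 0.05). They are not a full count of such genes, since 391 genes called in shoots had a called interaction. The interaction is the log2 difference between OX6 and WT in shoots minus that in roots, and no explanation of it was tested. Genes called higher in OX6 shoots and lower in OX6 roots had an interaction of 4.03 for Dehydration-responsive element-binding protein 1A (LOC_Os09g35030), 3.13 for Nitrate reductase (LOC_Os02g53130), 1.51 for Gibberellin 2-beta-dioxygenase (LOC_Os01g55240), 1.67 for Siroheme synthase (LOC_Os01g44050) and 1.39 for Protein NRT1/ PTR FAMILY 6.3 (LOC_Os10g40600). It was also 1.64 for Chaperone protein DnaJ (LOC_Os06g50230), 2.4 for F-box/kelch-repeat protein At1g80440 (LOC_Os02g11790), 1.52 for Solute carrier family 25 member 44 (LOC_Os03g07890), 1.7 for LOC_Os03g29540 and 1.3 for LOC_Os12g02040. It was also 0.948 for E3 ubiquitin-protein ligase RMA1H1 (LOC_Os04g44820). For genes called lower in shoots and higher in roots it was -1.99 for Carotenoid cleavage dioxygenase 8 homolog A (LOC_Os01g38580), -1.35 for Cytokinin dehydrogenase 3 (LOC_Os10g34230), -1.94 for Purple acid phosphatase 22 (LOC_Os11g05400), -1.17 for Nicotianamine synthase 3 (LOC_Os07g48980) and -0.869 for Expansin-A4 (LOC_Os05g39990). In genes called higher in shoots and not called in roots, or not tested there, it was 3.12 for Thiosulfate sulfurtransferase 18 (LOC_Os04g17660), 2.88 for Acid phosphatase 1 (LOC_Os06g36390), 2.63 for Beta-amylase 3 (LOC_Os10g41550), 2.3 for Transcription factor bHLH35 (LOC_Os04g23550) and 1.93 for Protein trichome birefringence-like 16 (LOC_Os12g33194). Genes called lower in shoots and not called in roots, or not tested there, gave -2.5 for Uncharacterized membrane protein YjcL (LOC_Os06g01790), -1.29 for Uncharacterized protein At4g14100 (LOC_Os07g09150) and -1.3 for receptor protein kinase ZmPK1 (LOC_Os01g47900). Where OX6 was called higher in both organs, by unequal amounts, it was 5.56 for the gene taken as ZAS (LOC_Os09g15240), 1.8 for LOC_Os10g14180, 1.83 for Zinc finger BED domain-containing protein RICESLEEPER 2 (LOC_Os06g40240), 1.72 for Cysteine-rich receptor-like protein kinase 15 (LOC_Os11g10710) and -0.933 for Two-component response regulator ORR10 (LOC_Os12g04500). It was also -0.933 for Two-component response regulator ORR9 (LOC_Os11g04720), 0.817 for Peroxidase 16 (LOC_Os06g48030), 0.794 for Peroxidase 55 (LOC_Os09g32964), -1.34 for Anthocyanidin 3-O-glucosyltransferase (LOC_Os06g09240) and 7.66 for LOC_Os03g18779. It was also 0.837 for LOC_Os03g08580 and -6.65 for LOC_Os07g32710. LOC_Os03g18779 had 0 counts in WT shoots and ZAS was nearly absent there, so the sizes of their interactions are uncertain. Where OX6 was called lower in both organs, by unequal amounts, the interaction was -1.29 for ACT domain-containing protein ACR3 (LOC_Os02g34990), -0.938 for Expansin-A2 (LOC_Os01g60770), -0.731 for E3 ubiquitin-protein ligase RHA2B (LOC_Os02g45710) and 1.07 for E3 ubiquitin-protein ligase RDUF1 (LOC_Os07g43740).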

How the results depend on the processing

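The 1481 calls became 707 at an adjusted p of 0.01, and 2459 when all 12 libraries shared 1 estimate of the spread, with 636 rather than 397 at least 2-fold. Leaving out 1 library gave 708 to 1877 calls and 298 to 452 at least 2-fold. The count was 1477 with DESeq2's size factors, 1582 with upper-quartile scaling, 2220 without the filter, 1476 with a CPM filter, 1954 by DESeq2 and 1440 by limma-voom. Upper-quartile scaling gave 783 higher and 799 lower calls. Of 395 called genes named by the rule, 214 kept their call under every alternative run, and 0 reversed. Deviations of same-numbered libraries correlated at -0.021, -0.010 and 0.046. A fit with the replicate block called 1454 genes, 1334 of them also called in the main fit. The labels do not say whether same-numbered libraries shared a batch, and these correlations cannot decide it. The cause of the changes between settings was not tested. With 3 libraries a group, small differences in genes of low count were not detectable.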
